A study of Arabidopsis thaliana with 32 samples.

Results

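In roots of Arabidopsis thaliana, 126 genes were listed as responding to zaxinone in the mutants d14 and max2 and in neither the wild type Col-0 nor the mutant kai2. They were found by matching locus codes between 4 deposited tables, 1 per genotype. A table lists a gene where zaxinone over mock had an adjusted p under 0.05 and a log2 fold change of at least 1 in size. The 4 tables together held 3443 genes, of which 1220 were in both the d14 and the max2 table, so the 126 genes made up 10.3% of that overlap. They were 5.39% of the 2336 genes of the d14 table and 8.32% of the 1514 genes of the max2 table. Another 827 genes were in all 4 tables, 146 were in the d14, max2 and Col-0 tables, and 121 were in the d14, max2 and kai2 tables. A gene absent from the Col-0 or kai2 table missed at least 1 of the thresholds there. Its values in those genotypes were not analysed here, so absence does not show that it did not respond in them.

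The groups compared below were d14 roots with zaxinone, d14 roots with mock, max2 roots with zaxinone and max2 roots with mock, with 4 libraries each. Plants were 5 weeks old and grown in hydroponics. Zaxinone roots had received 20 µM zaxinone in 1% acetone in the medium for 6 h, and mock roots 1% acetone alone for the same time. The labels name no mutant alleles. The labels do not say whether the libraries of a group came from separate plants or cultures, so the spread and the p-values below are those between these libraries, which may be technical.

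D14 is the receptor of strigolactones, carotenoid-derived hormones that restrain shoot branching, shape roots and are exuded to attract mycorrhizal fungi. When D14 binds its ligand it joins the F-box protein MAX2, whose ubiquitin ligase complex then marks SMXL repressor proteins for degradation. KAI2, a paralog of D14, works through the same F-box protein in karrikin responses, so d14 and max2 plants share a loss of strigolactone perception, and max2 plants lack the KAI2 pathway as well. Zaxinone is an apocarotenoid, a growth-regulating product of carotenoid cleavage.

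Libraries held 46.9 to 73.9 M fragments in d14 and 47.9 to 64.1 M in max2 (M for mega), as recovered from counts and FPKM. FPKM is the number of fragments per kilobase of exon and per M fragments. It is the scale of every level below, given per library in the order of replicates 1 to 4, and it allows levels to be compared between genes and between d14 and max2. Neither D14 nor MAX2 appeared in any of the tables, which left the mutant labels unchecked. Of 8 endodermis markers only CASP5 was listed, higher in all 4 tables, and the other 7 (among them CASP1 to CASP4, SCR and MYB36) were in none. No marker of epidermis, xylem, phloem or root cap was listed. Of 10 shoot markers only RBCS2B was listed in d14, where it was lower, and none in max2. In bulk roots, fewer cells of a type and less RNA per cell cannot be told apart.

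Of the 126 genes, 83 were listed higher with zaxinone in both mutants, 40 lower in both and 3 in opposite directions. The rule fixed that each gene be listed in each mutant and did not fix the direction. Over all 1220 genes in both tables, a total of 716 were higher in both, 496 lower in both and 8 opposite. Of all genes tested, 9.45% were called in d14 (5.94% higher and 3.51% lower), and 6.17% in max2 (3.57% higher and 2.6% lower). The share of opposite genes was 2.38% among the 126 and 0.656% among the 1220. Of the 8 opposite genes in all, 3 were thus among the 126, and the other 5 were also in 1 of the other tables.

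The sizes of change below are those of the authors' deposited tables. The median absolute log2 fold change was 1.5 in d14 and 1.31 in max2, against 2.04 and 1.60 for all 1220 genes. In d14 62 of the 126 genes (49.2%) lay under 1.5, and in max2 85 did (67.5%). Over all 1220 genes these shares were 23.3% in d14 and 43.3% in max2. Medians were 1.56 in d14 and 1.34 in max2 for the genes listed higher there. For those listed lower they were -1.35 in d14 and -1.29 in max2. Genes also in the Col-0 table had medians of 1.86 in d14 and 1.46 in max2, and those also in the kai2 table had 1.58 and 1.24. Genes in all 4 tables had medians of 2.23 in d14 and 1.74 in max2.

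**Figure D1:**
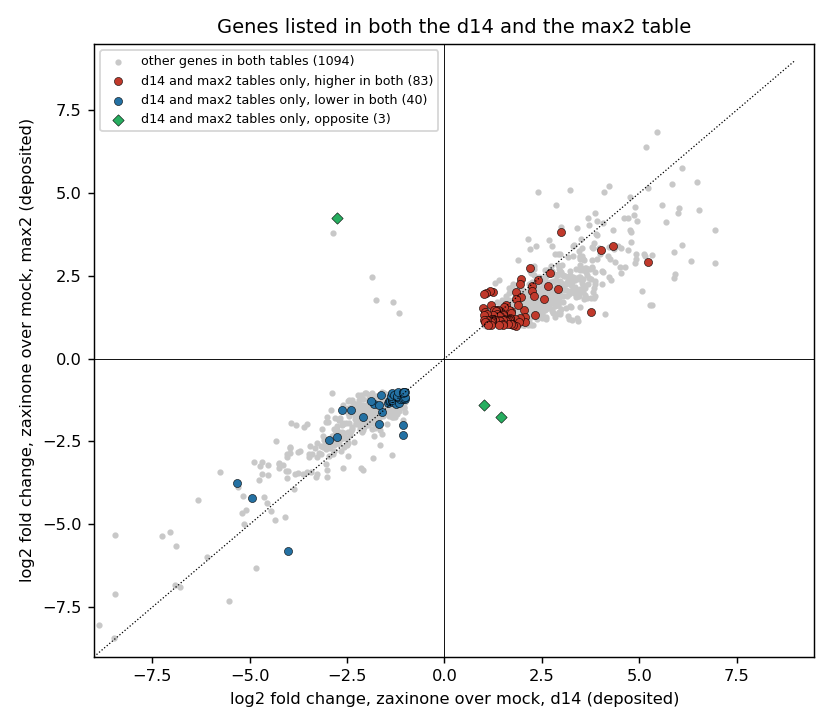
Each point is a gene in both the d14 and the max2 table, placed by its deposited log2 fold change of zaxinone over mock in d14 (x axis) and max2 (y axis). The dotted line marks equal change. Of the 126 genes in color, 83 lie at the upper right, 40 at the lower left and 3 in the other quadrants. In d14 62 of them and in max2 85 of them lie under 1.5 in size.

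The change was the larger one in d14 for 86 of the 123 genes with the same direction (69.9%), beside 80.0% of all such genes in both tables. In d14 113 of the 126 genes had no overlap between the 4 zaxinone and the 4 mock libraries, where 93.6% of the d14 table had none. In max2 there were 110 such genes, where 90.6% of the max2 table had no overlap. The libraries of neither mutant overlapped in 102 of the 126 genes, where 92.3% of the 1220 genes in both tables had no overlap in either, so the share among the 126 was the lower one. A fit of the deposited counts with edgeR, used here for sizes and standard errors, gave 106 of the 126 genes an adjusted p under 0.05 in d14 (72 higher, 34 lower) and 94 in max2 (64 higher, 30 lower). TMM scaling, which moved the median log2 change of the genes fitted by -0.86 in d14 and -0.64 in max2, left 68 in d14 (27 higher, 41 lower) and 54 in max2 (13 higher, 41 lower), with no gene changing direction. TMM takes most genes as unchanged. Every gene fitted here was listed as changed, 1468 higher and 868 lower in d14 and 876 and 638 in max2. That premise was therefore not met, and the counts under TMM cannot be read as a property of the 126 genes. Without TMM scaling, an adjusted p under 0.05 was given to 90% of the d14 table and 83.3% of the max2 table. Because the genes were chosen on these contrasts, all these values are a description.

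The genes nearest to the threshold from inside were MES9, which encodes a methyl esterase, with a log2 fold change of 1.83 in d14 and 1.00 in max2 in the authors' deposited tables, PS2 with 1.00 and 1.52, and AT4G14270 with 1.12 and 1.00. Just outside lay genes whose change in 1 further table was barely large enough to be listed there. The authors' deposited Col-0 table gave HVA22B 1.00 and the glutathione transferase gene GSTF6 1.00, and the kai2 table gave AT1G69480 1.00. The same authors' deposited tables listed HVA22B at 1.65 in d14 and 1.34 in max2, GSTF6 at 2.17 and 1.31, and AT1G69480 at 1.48 and 1.11. Requiring an absolute log2 fold change of 1.5 in both mutants left 32 genes, and requiring an adjusted p under 0.001 in both left 75.

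Heat shock proteins are chaperones that hold unfolding proteins in solution. All 5 genes of this role among the 126 were listed higher in both mutants, the small heat shock protein genes HSP17.6II, HSP23.6-MITO, AT5G51440 and AT1G59860 and the endoplasmic reticulum chaperone gene BIP3. Of all 126 genes, 83 were listed higher in both. Roles here and below were assigned by hand after values were seen, so a count by role describes only the genes so grouped. HSP17.6II, the cytosolic class II protein, had 2.29, 0.385, 0.0417 and 0.315 FPKM in d14 zaxinone libraries and 0.0308, 0.0217, 0.0516 and 0.0461 FPKM in d14 mock libraries. In max2 it had 0.107, 0.138, 0.774 and 1.3 FPKM with zaxinone and 0.0587, 0.117, 0.0474 and 0 FPKM with mock. Replicate 1 stood far above the other zaxinone libraries of d14, replicates 3 and 4 stood above the other 2 in max2, and zaxinone and mock overlapped in both mutants. HSP23.6-MITO, the mitochondrial counterpart, had 0.957, 0.126, 0.0175 and 0.0407 FPKM in d14 zaxinone libraries against 0, 0.0182, 0.0144 and 0.0388 FPKM in d14 mock libraries. Its max2 values were 0.0717, 0.0963, 0.753 and 1.11 FPKM with zaxinone and 0.0329, 0.0590, 0.0399 and 0.0744 FPKM with mock. The same libraries were the high ones, and again the groups overlapped in both mutants.

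The counts behind these levels were low, 64, 7, 1 and 2 fragments for HSP23.6-MITO in the d14 zaxinone libraries. The d14 change of HSP17.6II was 4.25 ± 1.01 on the log2 scale (± SE, edgeR) and 2.61 ± 0.70 without replicate 1. That of HSP23.6-MITO was 3.90 ± 1.2 and 1.68 ± 0.93 without it. AT5G51440 was listed with 6.85, 2.58, 3.07 and 4.00 FPKM in d14 zaxinone and 1.97, 1.39, 1.51 and 1.59 FPKM in d14 mock libraries, which did not overlap. BIP3 was even between libraries, with 0.521 ± 0.108 and 0.260 ± 0.0449 FPKM in d14 zaxinone and mock and 0.598 ± 0.0758 and 0.235 ± 0.0549 FPKM in max2 zaxinone and mock (mean ± SD, n = 4).

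**Figure D2:**
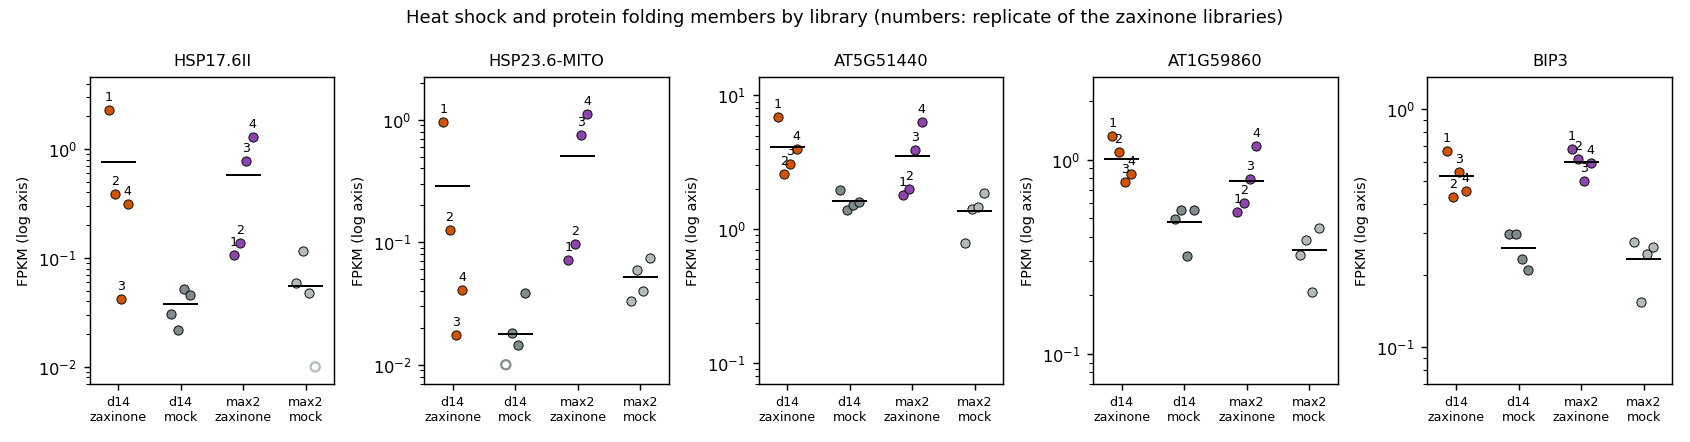
FPKM on a log axis of the 5 heat shock and protein folding genes in each library, by group, with the group mean as a bar and the replicate number at the zaxinone points. Open circles at the foot are libraries with 0 counts. HSP17.6II and HSP23.6-MITO reach their highest d14 value in replicate 1 (2.29 and 0.957 FPKM), and BIP3 shows no such library.

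Genes tied to abscisic acid, cold and dehydration formed another group of 5, all listed higher in both mutants. KIN1, a small cold- and abscisic acid-induced protein, had 10.2, 4.54, 3.52 and 6.35 FPKM in d14 zaxinone libraries and 0.490, 0.323, 0.457 and 0.523 FPKM in d14 mock libraries. Its max2 levels were 2.24, 2.41, 5.28 and 5.10 FPKM with zaxinone and 0.832, 0.870, 1.64 and 2.35 FPKM with mock. The d14 groups lay far apart, while in max2 the lowest zaxinone library fell just under the highest mock library. KIN1 lies beside its near-identical copy KIN2, which the authors' deposited tables list at 1.76 in Col-0, 2.28 in d14 and 1.90 in kai2 and which is absent from the max2 table. How fragments that match both copies were counted is not given in the sources used here, so the split between KIN1 and KIN2 is uncertain.

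ABA1, the zeaxanthin epoxidase of an early step of abscisic acid synthesis, had 17.9, 14.9, 22.4 and 23.56 FPKM with zaxinone and 8.74, 7.40, 9.81 and 8.51 FPKM with mock in d14. The max2 libraries held 16.5, 20.1, 16.1 and 14.6 FPKM with zaxinone and 8.48, 7.00, 8.03 and 7.94 FPKM with mock. Neither mutant showed any overlap, and the changes were 1.19 ± 0.17 and 1.1 ± 0.15. TIL, a temperature-induced lipocalin, averaged 63.4 ± 19.6 FPKM with zaxinone and 21.1 ± 1.71 FPKM with mock in d14, and 71.0 ± 25.9 and 23.2 ± 2.86 FPKM in max2 (SD, n = 4). The late embryogenesis abundant gene AT2G23120 and the osmotin gene OSM34 had log2 changes of 1.39 ± 0.19 and 1.61 ± 0.18 in d14, and by 1.03 ± 0.16 and 1.16 ± 0.27 in max2. OSM34 was among the most abundant of the 126 genes, with 717, 614, 513 and 803 FPKM in d14 zaxinone and 177, 256, 229 and 204 FPKM in d14 mock libraries.

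The promoters of 3 genes, from 250 bases before to 50 bases after the annotated start, are shown as examples of the motif counts that follow, with the matched motif in capitals. They come from RefSeq TAIR10.1 and read 5′ to 3′ on the strand of the gene. KIN1 lies on the plus strand (chr5:5209467-5209766) and holds an evening element, AAATATCT, read on the opposite strand. HSP23.6-MITO is on the plus strand (chr4:12916676-12916975) and holds a heat shock element core, GAANNTTC. CRK11, a receptor-like kinase gene described below, is on the minus strand (chr4:12143809-12144108) and holds 7 W-box cores, TTGAC, on the 2 strands together.
KIN1 promoter: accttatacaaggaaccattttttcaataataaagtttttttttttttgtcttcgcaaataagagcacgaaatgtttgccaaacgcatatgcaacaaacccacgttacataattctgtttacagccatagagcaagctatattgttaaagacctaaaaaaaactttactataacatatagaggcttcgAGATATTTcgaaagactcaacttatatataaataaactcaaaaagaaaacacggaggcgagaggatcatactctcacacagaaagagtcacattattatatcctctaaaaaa
HSP23.6-MITO promoter: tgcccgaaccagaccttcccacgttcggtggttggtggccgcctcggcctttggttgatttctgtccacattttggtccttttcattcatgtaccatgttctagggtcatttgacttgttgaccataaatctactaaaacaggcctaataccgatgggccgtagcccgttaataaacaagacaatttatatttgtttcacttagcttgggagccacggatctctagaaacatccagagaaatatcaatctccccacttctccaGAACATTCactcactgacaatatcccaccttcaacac
CRK11 promoter: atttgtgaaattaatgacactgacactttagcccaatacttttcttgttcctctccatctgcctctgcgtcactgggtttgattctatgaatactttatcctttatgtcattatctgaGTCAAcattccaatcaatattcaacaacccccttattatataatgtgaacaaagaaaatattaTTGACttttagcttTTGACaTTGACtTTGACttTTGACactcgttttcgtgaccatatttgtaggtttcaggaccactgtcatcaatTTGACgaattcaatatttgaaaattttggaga

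Such windows could be drawn for 109 of the 123 genes with the same direction, 73 listed higher and 36 listed lower. The evening element was in 10 of the 73 (13.7%) and 2 of the 36 (5.56%), and in 5.65% of all 27443 windows of protein-coding genes. The heat shock element core was in 16 of the 73 (21.9%) and 3 of the 36 (8.33%), against 11.6% of all windows. The W-box core was in 46 of the 73 (63.0%) and 26 of the 36 (72.2%), against 50.5%, and the DRE core CCGAC in 9 of the 73 (12.3%) and 1 of the 36 (2.78%), against 15%. The G-box CACGTG was in 8.22% of the windows listed higher and 5.56% of those listed lower, beside 7.68% of all, and the ABRE ACGTGGC in 5.48% and 2.78%, beside 4.08%. The as-1 core TGACG was in 24.7% and 13.9%, beside 23.1%, and the GCC-box GCCGCC in 4.11% and 2.78%, beside 2.57%. HSP17.6II held none of the 8 motifs. Both strands were searched, the as-1 and W-box cores overlap in the letters TTGACG, and a match is a run of letters, not a site in use.

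Cytochrome P450s and other enzymes that modify small molecules, as grouped by hand after values were seen, numbered 8 and were listed higher in both mutants. The grouping left out other enzymes such as the acyltransferase gene AT5G39080, which was listed lower in both, so the shared direction describes these 8 genes and not enzymes of that kind. IGMT4, an O-methyltransferase of indole glucosinolate synthesis, had 55.2, 35.2, 41.1 and 36.6 FPKM in d14 zaxinone libraries and 8.42, 7.76, 13.4 and 10.9 FPKM in d14 mock libraries. In max2 the values were 43.5, 41.0, 50.9 and 35.7 FPKM with zaxinone and 15.7, 23.3, 24.4 and 8.73 FPKM with mock. Zaxinone and mock did not overlap in either mutant, and the mock mean was the lower one in d14. SDR3, a short-chain dehydrogenase, reached 178 ± 43.7 FPKM with zaxinone and 56.5 ± 7.97 FPKM with mock in d14, and 133 ± 10.3 and 59.6 ± 11.7 FPKM in max2 (SD, n = 4). CYP71B10 and CYP82C3 had log2 changes of 2.82 ± 0.72 and 2.91 ± 0.92 in d14 and by 2.07 ± 0.57 and 3.52 ± 0.94 in max2, and both genes stayed at low levels (0.0873 ± 0.0468 FPKM for CYP71B10 in d14 zaxinone libraries). CYP82C3 had 26, 4, 4 and 2 counts in d14 zaxinone and 1, 1, 3 and 0 counts in d14 mock libraries, so its size rests on few fragments. Without d14 zaxinone replicate 1 the d14 change of CYP82C3 was 1.67 ± 0.83, and in max2 mock its fragments were all in replicate 1. The list of 25 detoxification genes (glutathione transferases, glucosyltransferases, oxophytodienoate reductases and others) held none of the 126. Of it 23 genes were listed higher in d14 and 22 in max2, with medians of 3.54 and 3.21. In Col-0 22 of them were listed higher and in kai2 20, so this response was not particular to d14 and max2.

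Cell wall and apoplast genes numbered 7, of which 6 were listed higher and 1 lower. XTH24, a xyloglucan endotransglucosylase that cuts and rejoins wall xyloglucan, had 577, 205, 227 and 192 FPKM in d14 zaxinone libraries and 86.5, 65.2, 97.2 and 87.7 FPKM in d14 mock libraries. The values in max2 were 166, 214, 162 and 197 FPKM with zaxinone and 34.7, 62.0, 70.6 and 46.6 FPKM with mock. All zaxinone libraries exceeded all mock libraries, and d14 replicate 1 stood well above the rest. The d14 change was 1.83 ± 0.33, and 1.31 ± 0.15 without that library. The metalloproteinase genes MMP and AT4G16640 had log2 changes of 1.75 ± 0.17 and 1.73 ± 0.22 in d14 and by 1.02 ± 0.17 and 1.05 ± 0.21 in max2. FRUCT5, annotated as a beta-fructofuranosidase, was the member listed lower, with 2.88, 3.67, 3.81 and 3.57 FPKM in d14 zaxinone and 8.09, 8.41, 7.41 and 8.31 FPKM in d14 mock libraries. C/VIF1, an inhibitor of fructosidases, was listed higher, with 27.7, 27.2, 23.2 and 22.2 FPKM in d14 zaxinone and 15.3, 12.8, 9.12 and 10.1 FPKM in d14 mock libraries. FRUCT5 and C/VIF1 thus lay on opposite sides in both mutants, with -1.16 ± 0.21 and 1.36 ± 0.17 in max2. Whether this inhibitor acts on this enzyme was not tested. AGAL1, an alpha-galactosidase gene, and the peroxidase gene AT4G37520 were listed higher, at 1.19 ± 0.15 and 1.26 ± 0.16 in d14.

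The 4 phosphatase and pyrophosphatase genes so grouped were all listed higher in both mutants, as were 83 of the 126 genes. PS2, the pyrophosphatase gene named for its induction by phosphate starvation, had 1.13, 0.878, 0.843 and 0.603 FPKM in d14 zaxinone and 0.653, 0.380, 0.417 and 0.279 FPKM in d14 mock libraries, which overlapped. Levels in max2 were 0.848, 0.911, 2.03 and 1.77 FPKM with zaxinone and 0.580, 0.457, 0.224 and 0.656 FPKM with mock, which did not. The acid phosphatase gene AT5G44020 was far more abundant, at 356 ± 79.3 and 143 ± 16 FPKM in d14 zaxinone and mock and 353 ± 64.0 and 126 ± 14.7 FPKM in max2 zaxinone and mock. PAP3, a purple acid phosphatase, averaged 0.430 ± 0.143 and 0.159 ± 0.0384 FPKM in d14 zaxinone and mock, and AT2G38600, an acid phosphatase family gene, 19.5 ± 1.08 and 6.87 ± 0.849 FPKM.

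Of 6 defence genes, 4 were listed higher and 2 lower. HCHIB, the basic chitinase, had 451, 454, 336 and 421 FPKM in d14 zaxinone libraries and 167, 223, 135 and 178 FPKM in d14 mock libraries. Max2 roots had 310.3, 342, 366 and 391 FPKM with zaxinone and 149, 112, 156 and 152 FPKM with mock, again with no overlap. PLA2A, a lipid acyl hydrolase, MPL1, an aphid-induced lipase, and the defensin-like gene AT3G59930 were the other genes listed higher, with changes of 1.51 ± 0.32, 1.67 ± 0.20 and 1.39 ± 0.36 in d14. NIMIN1, whose product binds the salicylic acid coactivator NPR1, and RLM3, an immune receptor gene, were listed lower at -1.15 ± 0.41 and -1.06 ± 0.36 in d14 and -1.23 ± 0.39 and -1.02 ± 0.36 in max2. NIMIN1 libraries overlapped in both mutants.

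Of 9 transcription factor genes, 5 were listed higher in both mutants, 3 lower and 1 (HEC1, described with the opposite genes) in opposite directions. CEJ1, an AP2-type repressor also called DEAR1, was the most abundant, with 239.6, 205, 196 and 204 FPKM in d14 zaxinone and 61.5, 70.5, 64.5 and 71.2 FPKM in d14 mock libraries. In max2 it had 209.7, 179, 193 and 231 FPKM with zaxinone and 64.7, 78.6, 91.5 and 60.3 FPKM with mock, and no libraries overlapped. BBX29, a B-box zinc finger gene, had log2 changes of 2.24 ± 0.26 in d14 and 2.21 ± 0.27 in max2, the MYB gene MYB49 by 1.53 ± 0.19 and 1.21 ± 0.17, and the AP2-type gene AT3G60490 by 1.52 ± 0.17 and 1.56 ± 0.16. WOX5, which marks the quiescent center of the root tip and keeps the stem cells around it undifferentiated, had 1.03, 0.805, 0.734 and 0.385 FPKM in d14 zaxinone libraries and 0.296, 0.345, 0.288 and 0.360 FPKM in d14 mock libraries. Its max2 values were 0.732, 1.06, 0.733 and 0.620 FPKM with zaxinone and 0.459, 0.352, 0.258 and 0.326 FPKM with mock, with no overlap in either mutant.

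WRKY18, a WRKY factor of defence responses, was listed lower, with 3.79, 2.98, 3.61 and 3.38 FPKM in d14 zaxinone and 6.38, 6.44, 7.20 and 7.96 FPKM in d14 mock libraries. The max2 libraries held 5.62, 4.23, 5.49 and 4.82 FPKM with zaxinone and 10.6, 11.2, 11.7 and 11.1 FPKM with mock. The homeobox gene HB52 was also listed lower, at -1.01 ± 0.18 and -1.21 ± 0.25. MYB16, a regulator of cuticle formation and epidermal cell shape, had 0 counts in all 4 d14 zaxinone libraries and 5, 4, 7 and 12 counts in d14 mock libraries. With a floor of 3 counts per library that is at least 1.85-fold lower, and in max2 it had 0, 1, 0 and 0 counts with zaxinone and 6, 4, 8 and 5 counts with mock.

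The cytokinin synthesis genes IPT3 and IPT7, whose isopentenyltransferases make the first dedicated step of cytokinin formation in roots, were both listed lower in both mutants. IPT3 had 8.35, 9.40, 5.29 and 5.73 FPKM in d14 zaxinone libraries and 16.3, 17.1, 12.9 and 14.4 FPKM in d14 mock libraries. The values in max2 were 8.38, 8.12, 8.27 and 8.87 FPKM with zaxinone and 19.3, 14, 12.9 and 22 FPKM with mock. IPT7 had 2.59, 2.27, 2.00 and 3.36 FPKM with zaxinone and 4.83, 5.92, 5.40 and 5.26 FPKM with mock in d14, and its max2 change was -1.21 ± 0.20. Neither gene overlapped between treatments in either mutant, and the log2 changes of IPT3 were -1.08 ± 0.20 in d14 and -1.02 ± 0.18 in max2.

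Of the 9 genes grouped by hand under membrane transport, 6 were listed lower and 3 higher. The split describes these 9 genes and not transport genes in general. NRT2:1, the main high-affinity nitrate transporter of roots, had 2.61, 4.15, 3.75 and 3.58 FPKM in d14 zaxinone libraries and 5.43, 13.9, 5.41 and 4.87 FPKM in d14 mock libraries. Levels in max2 were 4.00, 3.25, 5.24 and 5.52 FPKM with zaxinone and 22.6, 10.7, 14.1 and 41.7 FPKM with mock. Zaxinone libraries lay under all mock libraries in each mutant, and mock replicate 2 of d14 and replicate 4 of max2 were far above the rest of their groups. ENT4, an equilibrative nucleoside transporter, had log2 changes of -2.59 ± 0.51 in d14 (-3.28 without zaxinone replicate 3) and -1.53 ± 0.45 in max2, and the ABC transporter gene ABCB17 by -1.88 ± 0.26 and -1.26 ± 0.37. ABCB22 had 0, 1, 0 and 0 counts in d14 zaxinone and 15, 8, 16 and 22 counts in d14 mock libraries, and 0, 1, 1 and 1 against 10, 5, 7 and 22 counts in max2 zaxinone and mock. The glutamate receptor-like channel gene GLR3.5 and the facilitator gene AT1G54730 had log2 changes of -1.02 ± 0.17 and -1.40 ± 0.13 in d14. MSS1, a hexose transporter also called STP13, UMAMIT33 and the MATE efflux gene AT2G04050 were listed higher, with 1.71 ± 0.20, 1.51 ± 0.18 and 1.00 ± 0.34 in d14 and 1.44 ± 0.21, 1.03 ± 0.21 and 1.94 ± 0.51 in max2.

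Receptor-like proteins and kinases were listed in both directions, 2 higher and 3 lower. CRK11, a cysteine-rich receptor-like kinase, had 13, 8.23, 10.7 and 11 FPKM in d14 zaxinone and 3.64, 3.25, 4.13 and 3.57 FPKM in d14 mock libraries, and 9.65, 10.4, 10.1 and 9.60 against 3.95, 4.89, 4.81 and 4.20 FPKM in max2 zaxinone and mock. AT1G11330, an S-locus lectin kinase, went the other way, with 4.00, 6.73, 6.67 and 4.59 FPKM in d14 zaxinone and 13.7, 14.3, 14.2 and 12.7 FPKM in d14 mock libraries. Neither gene overlapped between treatments. RLP14 and the leucine-rich repeat kinase gene AT3G47570 were listed lower, at -1.2 ± 0.17 and -1.03 ± 0.16 in d14, and the kinase gene AT1G67000 higher, at 1.5 ± 0.20. Among 3 lectin genes, the jacalin-related JAL22 was listed higher at 1.03 ± 0.18 in d14 and 1.41 ± 0.18 in max2, and the lectin genes AT1G52120 and AT1G60130 lower, at -2.90 ± 0.83 and -1.21 ± 0.16 in d14. AT1G52120 gave -4.17 without d14 zaxinone replicate 2 and -2.27 without d14 mock replicate 3.

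**Figure D3:**
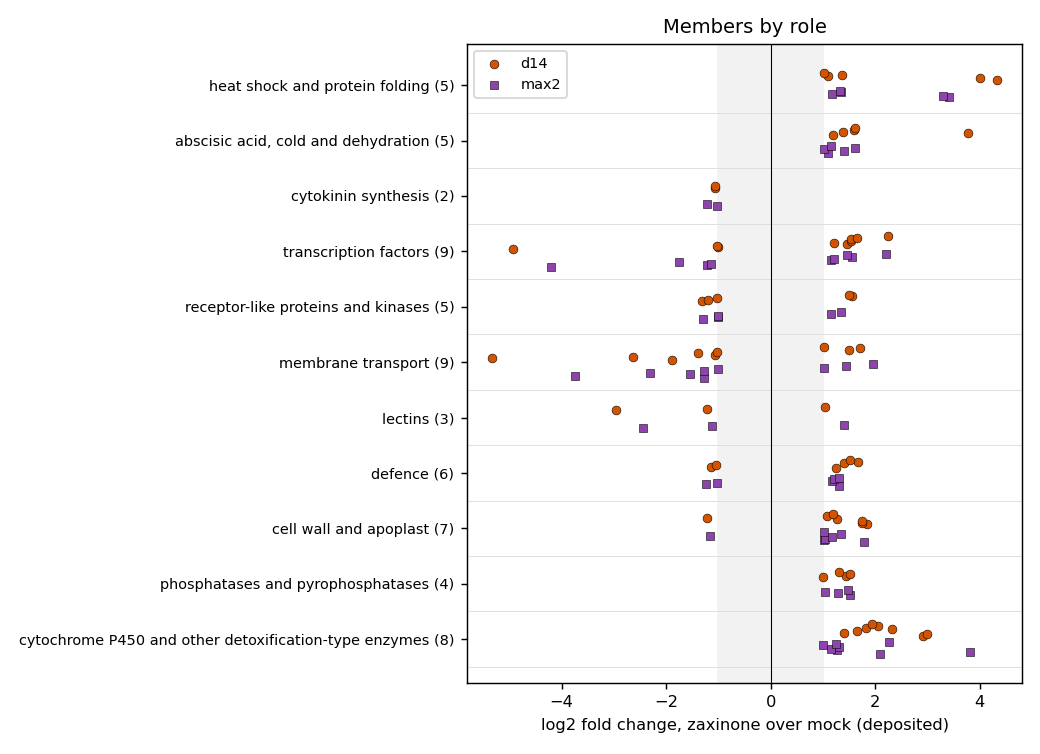
Deposited log2 fold change of zaxinone over mock for each gene with an assigned role, d14 as circles above max2 as squares, with the number of genes in brackets. The grey band spans the changes under 1 that the tables leave out. Roles were assigned by hand after values were seen. The heat shock, abscisic acid, phosphatase and P450-type genes so grouped lie to the right, and both cytokinin synthesis genes to the left.

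Of the 126 genes, 14 did not encode protein (11.1%, beside 5.57% of the 1220 genes in both tables), and they included 4 long noncoding RNAs, 6 RNAs of an unnamed class, 2 pseudogenes and the microRNA precursor MIR408. MIR408 makes a microRNA known for lowering copper protein transcripts when copper is scarce. Its precursor transcript had 3.52, 3.63, 3.71 and 3.23 FPKM in d14 zaxinone libraries and 1.37, 2.02, 0.903 and 1.24 FPKM in d14 mock libraries. Max2 roots had 3.19, 3.43, 2.63 and 3.54 FPKM with zaxinone and 1.42, 0.567, 0.767 and 1.72 FPKM with mock. No libraries overlapped, and the changes were 1.36 ± 0.31 and 1.48 ± 0.37. These values are of polyadenylated precursor, not of mature microRNA. The mature sequences in RefSeq, both on the plus strand of chromosome 2, are shown with bases 2 to 8 in capitals. Which transcripts they pair with was not tested.
ath-miR408-5p: aCAGGGAAcaagcagagcaug
ath-miR408-3p: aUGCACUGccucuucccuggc

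The precursor gene lies within AT2G47020 on the opposite strand, and whether the libraries kept strand is not given in the sources used here, so fragments of one cannot be told apart from those of the other. The long noncoding RNA AT3G04675 had 0 counts in all 4 d14 mock libraries and 6, 2, 12 and 3 counts in d14 zaxinone libraries. On the mean that was at least 2.26-fold higher at a floor of 3 counts per library, though zaxinone replicate 2 lay under that floor. The max2 change of AT3G04675 was 2.80 ± 0.70. AT3G07595, an unclassified transcribed region, had 0 counts in all max2 zaxinone libraries and 22, 1, 2 and 22 counts with mock. On the mean that was at least 3.41-fold lower at the same floor. Mock replicates 2 and 3 lay under that floor, so the value rests on replicates 1 and 4. The noncoding RNA AT1G31935 was the abundant one, with 167, 109, 94.6 and 112 FPKM in d14 zaxinone and 40.5, 50.0, 36.7 and 45.2 FPKM in d14 mock libraries, which lay well apart.

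The most abundant of the 126 genes was DJ1A, a glutamine amidotransferase-like protein of oxidative stress responses. It had 1634, 1071, 1135 and 1182 FPKM in d14 zaxinone libraries and 523, 535, 599 and 504 FPKM in d14 mock libraries, with 1.22 ± 0.17 in d14 and 1.13 ± 0.18 in max2. AT4G15610, of an uncharacterized membrane protein family, followed among the highest, with 972, 450.2, 393 and 386 FPKM in d14 zaxinone and 119, 138, 155 and 163 FPKM in d14 mock libraries. Replicate 1 was again far above the other zaxinone libraries. Levels spanned a wide range, and 45 of the 126 genes averaged under 1 FPKM over the 16 libraries while 35 averaged 10 FPKM or more. A filter of 10 counts in at least 4 libraries was passed by 112 genes in d14 and 115 in max2.

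Genes outside these roles made up the other members. ELIP1, an early light-induced chlorophyll-binding type protein, had 0.227, 0.182, 0.0888 and 0.288 FPKM in d14 zaxinone and 0.0131, 0.0370, 0.0731 and 0 FPKM in d14 mock libraries, which did not overlap. In max2 it had 0.0726, 0.215, 0.191 and 0.458 FPKM with zaxinone and 0.0833, 0.0199, 0.0202 and 0.0301 FPKM with mock, which did. CLE5, a CLAVATA3-type signal peptide gene, had 7.25, 5.54, 2.17 and 5.08 FPKM in d14 zaxinone and 2.31, 2.48, 1.77 and 1.98 FPKM in d14 mock libraries, with overlap. The max2 libraries held 5.55, 9.34, 7.68 and 4.99 FPKM with zaxinone and 1.58, 2.55, 2.09 and 0.706 FPKM with mock, with none. The threonine aldolase gene THA1, which breaks down threonine to glycine, had log2 changes of 1.81 ± 0.36 in d14 and 1.21 ± 0.33 in max2, and the glutamate decarboxylase gene GAD4 1.18 ± 0.27 and 1.62 ± 0.39.

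AT5G10150, of the UPSTREAM OF FLC protein family, was among the genes listed higher by the most, with 0.828, 0.462, 0.549 and 1.00 FPKM in d14 zaxinone and 0.137, 0.0714, 0.153 and 0.0867 FPKM in d14 mock libraries. PKS1, a substrate of phytochrome kinase activity, had 0.101, 0.0284, 0.0555 and 0.0966 FPKM in d14 zaxinone and 0.0153, 0.0433, 0.00571 and 0.0153 FPKM in d14 mock libraries, which overlapped, and 0.184, 0.244, 0.203 and 0.142 against 0.111, 0.0544, 0.0394 and 0.0471 FPKM in max2 zaxinone and mock, which did not. The glycine-rich protein gene AT3G04640 reached 90.0 ± 21.6 and 27.4 ± 3.70 FPKM in d14 zaxinone and mock and 61.8 ± 7.14 and 30.0 ± 2.41 FPKM in max2 zaxinone and mock. Lower with zaxinone was the Bax inhibitor family gene AT5G47130, with 0.0129, 0.0465, 0.0454 and 0.0351 FPKM in d14 zaxinone and 0.256, 0.220, 0.0997 and 0.357 FPKM in d14 mock libraries. MIPS3, an enzyme of inositol synthesis, had 9.18, 14.7, 10.4 and 12.2 FPKM with zaxinone and 29.5, 31.4, 31.1 and 26.7 FPKM with mock in d14, without overlap. EDA36, a pyridoxal phosphate-dependent transferase gene, had 3.38, 2.91, 3.68 and 3.23 FPKM with zaxinone and 8.38, 10.04, 9.65 and 7.87 FPKM with mock in d14, also without overlap. Members not named here had deposited log2 fold changes within the ranges plotted above, from 1.00 to 5.22 in d14 for genes listed higher and from -5.33 to -1.01 for genes listed lower.

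Libraries did not contribute evenly. Replicate 1 of d14 zaxinone held the highest of the 4 zaxinone values in 64 of the 126 genes and the lowest in 22. Replicates 2, 3 and 4 held the highest in 24, 16 and 22. Without replicate 1, edgeR gave 100 of the 126 genes an adjusted p under 0.05 in d14, beside 106 with it. With that library, 90% of the d14 table had such a p. Chi-square values per degree of freedom between replicate libraries of a group ran from 16.5 to 345.0, so no pair agreed within sampling noise.

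The difference between the zaxinone effects in d14 and in max2 was fitted as the genotype by treatment term of an edgeR quasi-likelihood model over the 16 libraries, adjusted over the 1220 genes in both tables. Both effects were used to choose the genes. The 3 opposite genes differ by at least 2 on the log2 scale by that choice, and the same thresholds bound the effects of the others, so these values are a description and no test of the 126 genes. An adjusted p under 0.05 was given to 6 of the 126 genes (4.76%) and to 11.9% of the 1220, which passed the same thresholds in d14 and max2. At an unadjusted p under 0.05 there were 13, beside 328 of the 1220. The 6 were the 3 opposite genes and KIN1, CXE12 and MMP. The effect in d14 exceeded that in max2 in 5 of them (background 9.67%) and was under it in AT3G29970 (background 2.21%). The median difference was 0.08 on the log2 scale over the 126 genes and 0.12 over the 1220.

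AT3G29970 encodes a B12D protein, counted among the low oxygen response genes of Arabidopsis, and had the widest split. In d14 it had 0.928, 0.623, 1.79 and 4.27 FPKM with zaxinone and 30.9, 14.2, 0.712 and 6.18 FPKM with mock. The values in max2 were 28.8, 3.66, 58.0 and 39.3 FPKM with zaxinone and 3.19, 0.861, 0.218 and 2.55 FPKM with mock. It was listed lower in d14, where mock replicate 3 lay among the zaxinone libraries and the groups overlapped, and higher in max2, where they did not. The difference of the effects was -7.01 ± 1.32 (± SE, edgeR). Of 11 low oxygen response genes, the authors' deposited tables listed 7 lower and none higher in d14 (ADH1 at -2.11, PDC1 at -1.87), and in max2 HRE2 at 4.10 and SUS1 at 1.05 higher and HRE1 at -1.92 lower. In Col-0 8 of the 11 were listed lower and in kai2 4, none higher. None of those genes was among the 126, and their part in the result for AT3G29970 was not tested.

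HEC1, a basic helix-loop-helix factor of meristem and carpel development, had 0.149, 0.268, 0.203 and 0.219 FPKM with zaxinone and 0.0321, 0.121, 0.0717 and 0.0856 FPKM with mock in d14. Levels in max2 were 0.134, 0.0319, 0.0425 and 0.0156 FPKM with zaxinone and 0.136, 0.244, 0.182 and 0.197 FPKM with mock. Treatments did not overlap in either mutant and lay in opposite order, and the effects differed by 3.16 ± 0.72. The counts were low, 12, 18, 14 and 13 in d14 zaxinone and 9, 2, 3 and 1 in max2 zaxinone libraries. AT4G25433, a LysM domain protein gene, had 2.42, 1.40, 1.05 and 0.710 FPKM with zaxinone and 0.487, 0.993, 0.605 and 0.739 FPKM with mock in d14, which overlapped. Max2 roots had 0.676, 0.780, 1.05 and 0.842 FPKM with zaxinone and 2.41, 1.70, 1.70 and 2.97 FPKM with mock, which did not, and the effects differed by 2.39 ± 0.49. In the edgeR fit within d14, HEC1, AT4G25433 and AT3G29970 all had an adjusted p above 0.05. The same held for HEC1 in max2. Over the other settings the d14 log2 change ran from 0.61 to 1.70 for HEC1 and from 0.11 to 1.21 for AT4G25433. For AT3G29970 it ran from -3.63 to -1.89.

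KIN1, whose libraries are given above, was listed higher in both mutants and more so in d14, by 3.76 ± 0.35 there and 1.40 ± 0.40 in max2. The difference was 2.37 ± 0.56. CXE12, a carboxylesterase gene, had 11.8, 7.60, 6.28 and 10.7 FPKM with zaxinone and 1.61, 1.79, 1.81 and 2.1 FPKM with mock in d14. In max2 it had 5.91, 6.62, 6.63 and 5.93 FPKM with zaxinone and 2.26, 2.63, 3.53 and 1.73 FPKM with mock. Its effects differed by 1.01 ± 0.31 and passed the same threshold in 9 of 22 other settings. The sixth gene, the metalloproteinase gene MMP, differed by 0.73 ± 0.23 and passed it in 7 of the 22. KIN1 passed it in all 22.

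**Figure D4:**
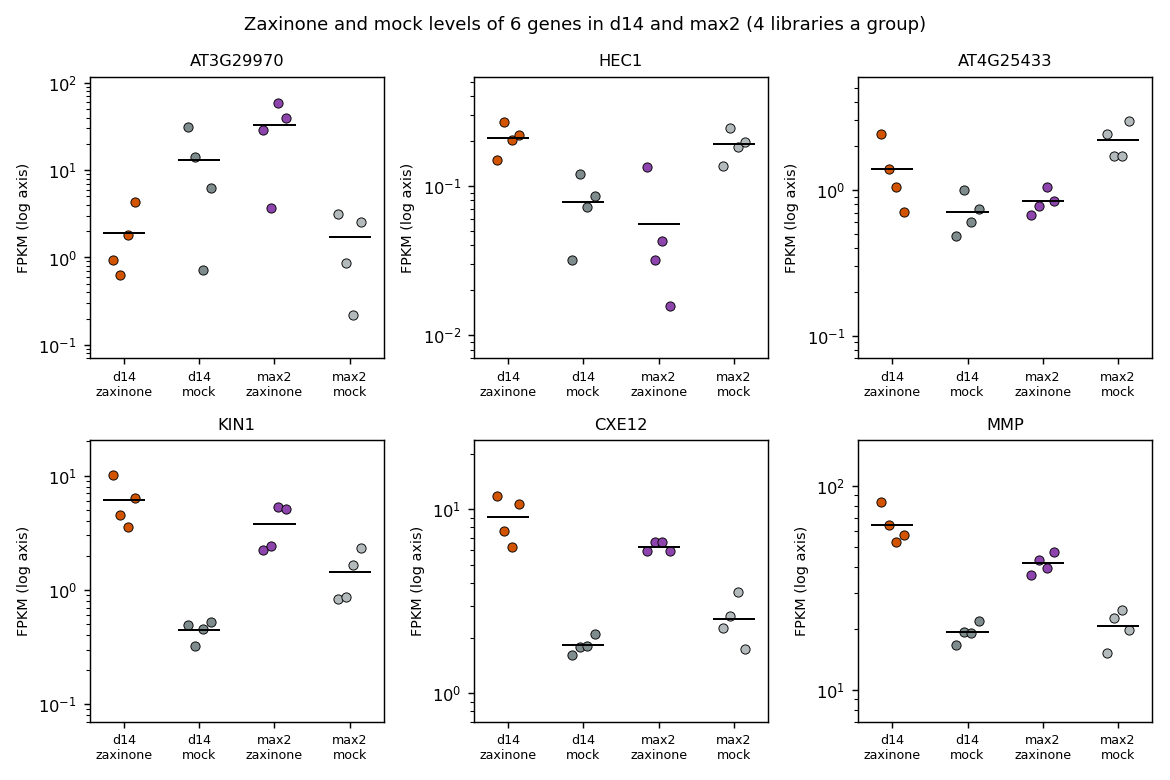
FPKM on a log axis in each library of the 6 genes with an adjusted p under 0.05 for the difference between the zaxinone effects in d14 and max2, by group, with the group mean as a bar. AT3G29970, HEC1 and AT4G25433 change order between the mutants, while KIN1, CXE12 and MMP are higher with zaxinone in both and more so in d14.

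Mock-treated roots of the 2 mutants were compared in the same model. The rule did not use this contrast, but the mock libraries entered both effects that chose the genes. The values and p-values below are therefore a description and no test of the 126 genes. For the 3 opposite genes a difference between the mutants, in mock or in zaxinone level, follows from their choice. No p is given for them. Of the 126 genes 13 differed at an adjusted p under 0.05 (10.3%), beside 11.7% of the 1220 genes in both tables. Of these 3 were higher in d14 mock than in max2 mock (background 1.89%) and 10 lower (background 9.84%). The 3 include the opposite gene AT3G29970 and the 10 include the opposite gene AT4G25433, whose differences follow from their choice. At an unadjusted p under 0.05 there were 29, beside 355 of the 1220. In 16 of the 126 genes the d14 and max2 mock libraries did not overlap, beside 19.2% of the 1220. The count moved with single libraries. It was 3 without d14 mock replicate 1, 6 without replicate 2 and 8 without replicate 4. It was 7 without max2 mock replicate 2 and 4 without replicate 3. Shares over the 1220 genes in these settings are not given here. The shifts can therefore not be read as a property of the 126 genes.

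AT5G39080, an acyltransferase gene, had 1.85, 1.63, 2.30 and 2.61 FPKM in d14 mock libraries and 5.27, 7.51, 4.86 and 4.72 FPKM in max2 mock libraries, all lower in d14. The difference was -1.41 ± 0.23 on the log2 scale (adjusted p = 0.00111, edgeR). WRKY18, with the mock libraries given above, differed by -0.67 ± 0.14 (adjusted p = 0.00792, edgeR), again with every d14 library the lower. The opposite gene AT4G25433 had a difference of -1.65 ± 0.35. The calls of AT5G39080 and WRKY18 held in all 21 other settings tried. NRT2:1 differed by -1.59 ± 0.37 (adjusted p = 0.0154, edgeR), with 1 d14 mock library above the lowest max2 mock library, and KIN1 by -1.66 ± 0.42 (adjusted p = 0.0188, edgeR). The remaining genes lower in d14 mock were AT2G38600, EDA36, AT1G52120, AT1G11330 and IGMT4.

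Higher in d14 mock were AT5G24640, AT3G29970 and AT1G06830. AT5G24640, of no annotated function, had 1.49, 1.44, 1.00 and 0.697 FPKM in d14 mock libraries and 0.285, 0.417, 0.499 and 0.201 FPKM in max2 mock libraries, with no overlap and a difference of 1.74 ± 0.52 (adjusted p = 0.039, edgeR). AT1G06830, a glutaredoxin gene, had 6.60, 4.87, 4.76 and 7.53 FPKM in d14 mock and 4.70, 2.21, 1.94 and 3.01 FPKM in max2 mock libraries, and differed by 1.00 ± 0.32 (adjusted p = 0.0476, edgeR). The opposite gene AT3G29970 had a difference of 2.90 ± 0.91, and its mock libraries overlapped. Each of these calls was lost in 8 to 10 of 21 other settings.

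**Figure D5:**
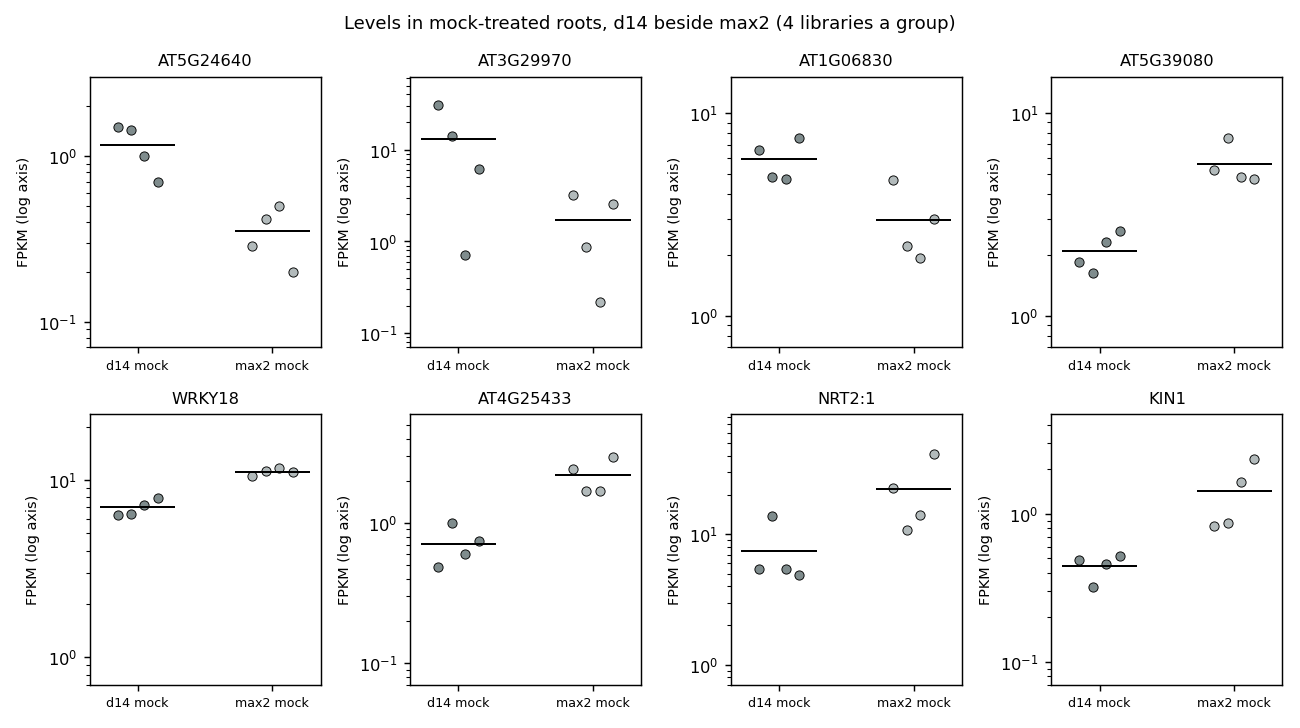
FPKM on a log axis in d14 mock and max2 mock libraries, with the group mean as a bar, for the 3 genes called higher in d14 mock and for 5 of the 10 called lower. Every d14 library lies below every max2 library for AT5G39080, WRKY18, AT4G25433 and KIN1, while NRT2:1 overlaps.

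With zaxinone, 14 of the 126 genes differed in level between d14 and max2 (11.1%), 7 higher (background 11.7%) and 7 lower (background 11.8%), beside 23.5% of the 1220 genes. At an unadjusted p under 0.05 there were 28, beside 463 of the 1220. The count was 9 without d14 zaxinone replicate 1, 8 without max2 zaxinone replicate 1 and 7 without max2 zaxinone replicate 3. Shares over the 1220 genes are not given for these settings either, so the shifts cannot be read as particular to the 126 genes. AT3G29970 was lower in d14 by the most, at -4.11 ± 0.95, and HEC1 was higher by the most, at 1.85 ± 0.53, both of them opposite genes. The genes WRKY18, EDA36 and AT1G11330 were lower in d14 both with zaxinone and with mock, as was AT1G52120. The zaxinone libraries also entered both effects that chose the genes, so these values are a description as well.

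None of the 126 was a strigolactone gene: of 10 synthesis and signaling genes none was listed in d14 or max2. MAX3, a carotenoid cleavage enzyme of strigolactone synthesis, was listed in the authors' deposited Col-0 and kai2 tables alone, at 1.92 and 1.64. Of 17 abscisic acid response genes, 15 were listed higher in d14 and 13 in max2, none lower, with medians of 2.80 and 1.84, and KIN1 was among the 126. In Col-0 15 of the 17 were listed higher and in kai2 15 as well, so this response was not particular to d14 and max2. Of 12 heat shock genes 8 were listed higher in d14 and 5 in max2, with medians of 2.27 and 2.18 and with HSP17.6II among the 126. In Col-0 5 of the 12 and in kai2 2 were listed higher. Of 15 nitrate and phosphate genes 1 was listed higher and 3 lower in d14, and 2 higher and 1 lower in max2, with NRT2:1 and PS2 among the 126. Of 15 cell wall genes XTH24 alone was among the 126. The karrikin, jasmonate, ethylene, auxin, gibberellin and brassinosteroid, starvation and immunity lists held none.

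On the 5 chromosomes the 126 genes numbered 30, 21, 24, 21 and 30. In 8 pairs at most 2 annotated genes lay between the members, and in 5 of these none did. AT1G62510, a lipid-transfer type gene at chr1:23136366-23137254, and AT1G62515 at chr1:23136720-23137413 overlap by 535 bases on opposite strands and were listed at 2.26 and 2.41 in the authors' deposited d14 table. HCHIB at chr3:3962136-3963984 and the long noncoding RNA AT3G12502 at chr3:3962406-3964222 overlap by 1579 bases on opposite strands, and AT3G12502 had 18.5, 18.4, 13.5 and 17.0 FPKM in d14 zaxinone and 7.34, 9.39, 4.77 and 6.24 FPKM in d14 mock libraries. Without knowledge of strand the members of such a pair cannot be told apart. The 2-oxoglutarate oxygenase gene AT5G12270 and AT5G12280 lie 262 bases apart on 1 strand, and the adenosylmethionine decarboxylase gene AT5G15950 lies 1680 bases before KIN1. Both these pairs were listed higher throughout. AT5G10150 and the inositol phosphate synthase gene MIPS3, with 1 gene between them, were listed higher and lower, at 2.64 ± 0.36 and -1.35 ± 0.16 in d14.

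In all, 30 of the 126 genes overlap another annotated gene, 25 of them on the opposite strand. The long noncoding RNA AT1G05562 lies across UGT75B1, a glucosyltransferase gene listed higher in all 4 authors' deposited tables, at 3.55 in Col-0 and 3.83 in d14. AT1G05562 was listed at 1.05 in d14 and 1.11 in max2 in the same tables, and its level was 0.550, 1.07, 0.869 and 0.559 FPKM in d14 zaxinone and 0.431, 0.349, 0.418 and 0.279 FPKM in d14 mock libraries. How far fragments of UGT75B1 entered these counts was not tested.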

How the data were processed

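RNA was sequenced from Arabidopsis roots of 4 genotypes, treated with zaxinone or mock, with 4 libraries in each of 8 groups. Per the labels' protocols, polyadenylated RNA was selected with poly-T beads, primed with random hexamers and sequenced as paired ends on Illumina machines. The submitters' processing notes name the tools HISAT2 and StringTie, without versions. Settings, counter and strandedness were not given in the sources used here. The authors deposited 1 table per genotype with raw counts per gene, a normalized signal (in the deposited values, counts divided by 1 factor per library), FPKM, the log2 fold change of zaxinone over mock, and its p-value and adjusted p-value. Each deposited table holds only genes with an adjusted p-value under 0.05 and a log2 fold change of at least 1 in size.

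The 126 genes, the gene lists and the roles were chosen with earlier results of these data known, the roles by hand after values were seen. Gene positions come from RefSeq TAIR10.1. The exon lengths implied by counts and FPKM matched that annotation within 0.1% for all values compared, and all 126 locus codes matched. Counts were fitted with edgeR 4.0.16 (glmQLFit and glmQLFTest) in R 4.3.3, with limma 3.58.1 and DESeq2 1.42.0 as alternatives. Because whole count tables were not used here, library sizes were the library totals recovered from counts and FPKM. Within a genotype, p-values were adjusted by Benjamini-Hochberg over the 24718 tests in d14 and 24534 in max2 that the deposited p-values imply, which tends to make them too high. Contrasts between d14 and max2 were adjusted over the 1220 genes in both tables, in 1 fit over 16 libraries. Fold bounds used a floor of 3 counts per library, which covers counting error only. The fit was also run on simulated counts in which most genes did not change between groups. Every gene fitted here was listed as changed, so that run does not show how the fit performs on these data. The genes named by rule were the 8 listed higher and the 8 listed lower with the largest mean change, the 3 opposite genes, the 5 with the smallest p for the difference of effects, up to 4 higher and 4 lower in d14 mock, the 4 of highest FPKM, those on a gene list, and the 3 nearest the threshold on each side. All others were chosen after their values were seen. Alternatives were other scalings, DESeq2, limma-voom, a count filter, the replicate number as a block, and leaving out each library.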

Additional observations from a re-analysis of the deposited data

Results flagged for a closer look

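Of 128 groups of 4 libraries examined for named genes, 15 held a library that stood apart. Its gap to the nearest other exceeded Dixon's 95% critical share of the whole range. Chance gives about 5%, or 1 in 20 groups, for independent and normally distributed values. Levels resting on few fragments are not so distributed, and the genes share libraries. No excess over chance can therefore be read from this count. Replicate 1 of d14 zaxinone was the library standing apart in 5 of the 15 groups. HSP17.6II had 2.29 FPKM there, with the other 3 between 0.0417 and 0.385 FPKM. HSP23.6-MITO had 0.957 FPKM, CYP82C3 0.247 FPKM, XTH24 577 FPKM and AT4G15610 972 FPKM in that library. Without it the log2 change in d14 was 2.61 for HSP17.6II and 1.68 for HSP23.6-MITO, against 4.25 and 3.90 with it. For CYP82C3 the change was 1.67 without it and 2.91 with it. For XTH24 the change was 1.31 without it and 1.83 with it.

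Other libraries that stood apart held few fragments in several cases. CYP82C3 had 0.0209 FPKM in replicate 1 of max2 mock, where the other 3 were at 0. ELIP1 had 0.0833 FPKM in the same library. AT3G07595 had 0.0767 FPKM in replicate 4 of d14 zaxinone, where the others were at 0. MYB16 had 0.0117 FPKM in replicate 2 of max2 zaxinone, and ABCB22 had 0.00510 FPKM in replicate 2 of d14 zaxinone, with the other libraries of each group at 0. ABCB22 was at 0 in replicate 1 of max2 zaxinone, and the other 3 had 0.00486 to 0.00547 FPKM.

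AT2G08650, also at few fragments, had 0.366 FPKM (17 counts) in replicate 2 of max2 zaxinone. Among genes with more fragments, AT4G14270 had 211 FPKM in that library. NRT2:1 had 13.9 FPKM in replicate 2 of d14 mock, above 4.87 to 5.43 FPKM in the others. HCHIB had 112 FPKM in replicate 2 of max2 mock, below 149 to 156 FPKM in the others.

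The difference between the zaxinone effects in d14 and in max2 had an adjusted p under 0.05 (edgeR) for 5 of the named genes, although both effects were used to choose them. On the log2 scale, d14 minus max2, it was -7.01 for AT3G29970, 3.16 for HEC1, 2.39 for AT4G25433, 2.37 for KIN1 and 1.01 for CXE12.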

How the results depend on the processing

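Direction did not change for any of the 126 genes in any setting tried. TMM scaling over the fitted genes moved the median log2 change of the genes fitted by -0.86 in d14 and -0.64 in max2. It left 68 edgeR calls in d14 (27 higher, 41 lower, beside 72 and 34) and 54 in max2 (13 higher, 41 lower, beside 64 and 30). The premise of TMM that most genes are unchanged was not met, since every gene fitted was listed as changed. DESeq2 gave 112 calls in d14, 105 in max2, 9 for the difference of effects, 17 for the mock level and 16 for the zaxinone level. Limma-voom gave 104, 90, 4, 9 and 13, and the count filter 97, 92, 6, 13 and 14. The authors' thresholds set the membership, with 32 genes at an absolute log2 fold change of 1.5 and 75 at an adjusted p under 0.001. Leaving out each library in turn gave 91 to 101 calls in d14, 74 to 93 in max2, 4 to 8 for the difference of effects, 3 to 18 for the mock level and 7 to 16 for the zaxinone level. The replicate block gave 100 calls in d14, 83 in max2 and 4 for the difference of effects. Shares over all genes fitted are given above for the main setting only. Whether these shifts concern the 126 genes or all genes fitted is thus not shown. Same-numbered zaxinone and mock libraries share only a number: their deviations correlated at -0.129 to 0.119 in d14 and -0.138 to 0.274 in max2, and 2 of 8 zaxinone libraries correlated best with their own number. The block could not be fitted for levels between mutants, since replicates lie within a genotype. Genes at a few counts per library limit every value given for them, and a small change there was not detectable at this depth.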
